A study of Mus musculus with 4 samples.

Results

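Classical cadherins and non-clustered protocadherins are calcium-dependent adhesion molecules, and their RNA was compared between olfactory bulbs with and without the transcription factors Sp8 and Sp9 in the interneuron lineage. The members were taken by gene symbol, as every numbered Cdh gene except the endothelial Cdh5 and every numbered Pcdh gene outside the Pcdha, Pcdhb and Pcdhg clusters. This gave 33 genes, 21 cadherins and 12 protocadherins, of the 20032 genes in the table. The DCKO mice carried the Dlx5/6-CIE transgene with Sp8 Flox/Flox and Sp9 Flox/Flox, and DCKO stands for double conditional knockout. Dlx5/6-CIE drives Cre in forebrain GABAergic precursors, so deletion is directed at that lineage and not at every cell of the bulb. The controls were littermates with no Cre, and whether they carried floxed alleles is not given in the labels. Both groups were on a mixed background of C57BL/6J, 129S6 and CD1, and bulbs were taken at postnatal day 11, in 2 DCKO and 2 control libraries. The labels do not say whether libraries of a group came from separate animals. Sex-linked genes, given with Pcdh11x, differ between the DCKO libraries in a way that 1 animal could not give. For the controls the spread may be technical, and the p-values reflect only how much these samples vary.

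Classical cadherins bind the same or a related cadherin on the neighbouring cell through extracellular repeats, and their cytoplasmic tails hold p120 and beta-catenin, which links through alpha-catenin to actin. Type I members such as N-cadherin carry strong general adhesion, while type II members are expressed in combinations that differ between brain nuclei and neuron classes. The non-clustered protocadherins are split by their tails into delta-1 and delta-2 groups and take part in axon sorting, dendrite growth and synapse remodelling. In the olfactory bulb, adhesion of this kind is known to bear on the chain migration of neuroblasts, on layering and on the contacts between interneurons and projection neurons.

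Sp8 stood at 1.68 and 2.03 FPKM in DCKO bulbs, against 32.0 and 26.7 FPKM in controls, and Sp9 at 0.0674 and 0.236 FPKM, against 24.0 and 30.7 FPKM. FPKM scales fragments by transcript length and by the mapped fragments of the library, so levels of different genes can be set side by side. The deposited scaled counts summed to between 14632502 and 15400982 per library. Of 7 interneuron markers all 7 fell, with summed levels of 83.4 and 131 FPKM in DCKO and 736 and 699.8 FPKM in controls. All 6 mitral and tufted cell markers rose, with sums of 1144 and 1020 FPKM in DCKO and 501 and 539.8 FPKM in controls. Control replicate 1 stood apart in markers of tissue next to the bulb. Its summed epithelial markers were 97.2 FPKM, against 7.68 to 10.3 FPKM in the other libraries, and its olfactory sensory neuron markers 196 FPKM, against 49.1 to 63.6 FPKM. Its 8 bone markers summed to 162 FPKM, against 29.2 to 42.2 FPKM elsewhere, while Sp7 and Runx2 of that list were high in both controls. In whole-bulb RNA, fewer cells of a type and less RNA per cell cannot be told apart.

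Of the 33 members, 28 had a mean over the 4 libraries of at least 1 FPKM and were tested. In DCKO 9 of them fell and 5 rose, by limma on log2(FPKM + 1) at a Benjamini-Hochberg adjusted p below 0.05 over 13434 genes. The share of all tested genes that passed was 27.3%, with 14.3% lower and 13.0% higher. Members thus passed in 50% of cases, with 32.1% lower and 17.9% higher. Their median log2 change was -0.09, against -0.02 over all tested genes. The 2 groups did not overlap in 20 of the 28 members, 7 of them higher and 13 lower. Over all tested genes the groups were separate in 71.5%, with 33.9% higher and 37.6% lower. With 2 libraries against 2, an exact permutation test of a single gene cannot give a p below 0.33, so calls rest on the variance shared across genes. Pcdh12, with a mean of 1.02 FPKM, was the member just above the filter, and Cdh9, with 0.690 FPKM, the one just below it.

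**Figure D1:**
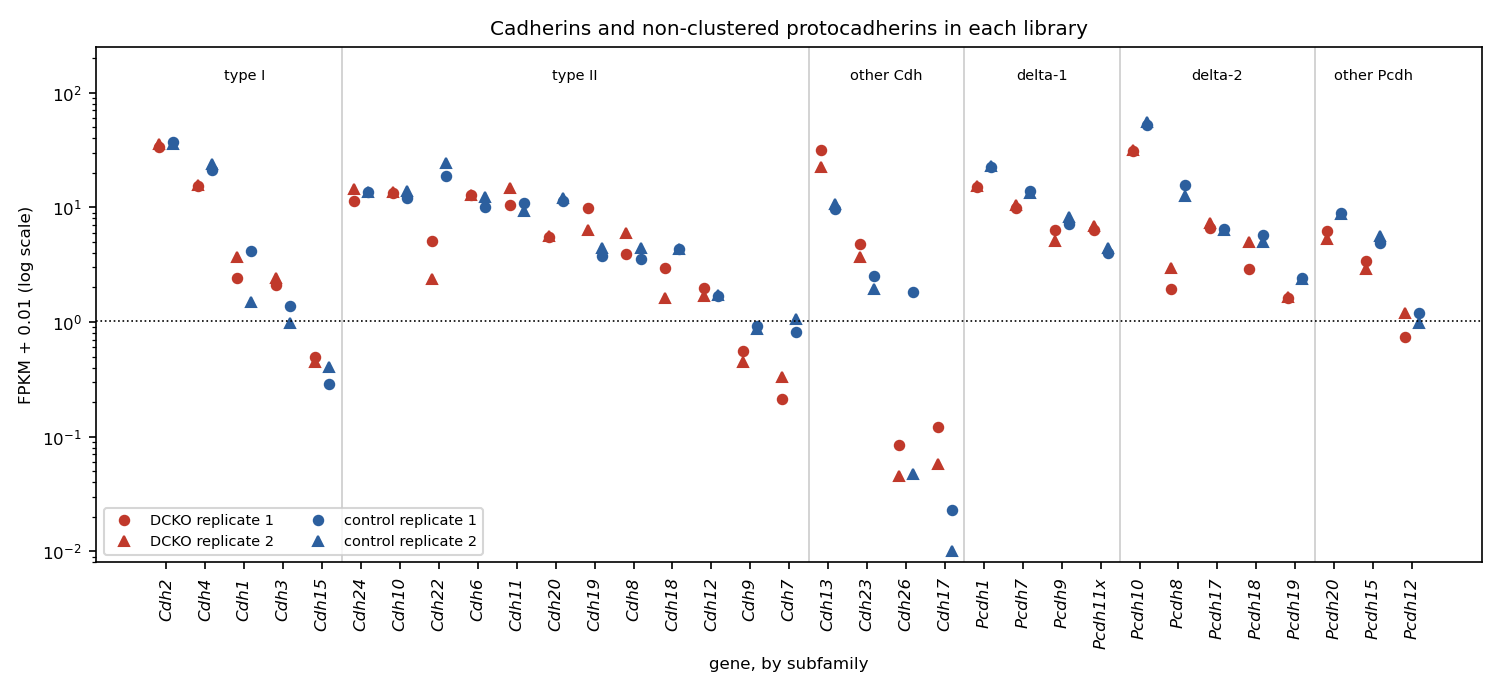
FPKM of each member in each library (vertical log axis, with 0.01 added so that a value of 0 can be drawn), by subfamily along the horizontal axis. DCKO libraries are red and controls blue, circles are replicate 1 and triangles replicate 2, and the dotted line marks 1 FPKM. Cdh22 and Pcdh8 show the widest gaps below the controls among the tested members, and Cdh13 the widest gap above them.

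The 4 tested members of largest decrease by log2 change were Cdh22, Pcdh8, Cdh20 and Pcdh10. Sp proteins are known to bind GC boxes, and whether Sp8 or Sp9 acts directly on these 4 genes was not tested. Their proximal promoters are shown with that motif marked. Each runs 5′ to 3′ on the gene's strand, from 250 bases before to 50 after a RefSeq transcription start (GRCm38.p6), and capitals mark the GC box GGGCGG on either strand. They lie at chr2:165234688-165234987 on the - strand for Cdh22, chr14:79771263-79771562 on the - strand for Pcdh8, chr1:104768270-104768569 on the + strand for Cdh20, and chr3:45378148-45378447 on the + strand for Pcdh10.
Cdh22: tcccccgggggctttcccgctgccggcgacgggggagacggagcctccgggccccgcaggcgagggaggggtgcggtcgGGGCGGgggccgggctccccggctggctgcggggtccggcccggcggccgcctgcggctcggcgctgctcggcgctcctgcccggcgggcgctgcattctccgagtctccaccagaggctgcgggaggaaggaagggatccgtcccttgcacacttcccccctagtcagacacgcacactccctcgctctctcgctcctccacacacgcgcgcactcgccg
Pcdh8: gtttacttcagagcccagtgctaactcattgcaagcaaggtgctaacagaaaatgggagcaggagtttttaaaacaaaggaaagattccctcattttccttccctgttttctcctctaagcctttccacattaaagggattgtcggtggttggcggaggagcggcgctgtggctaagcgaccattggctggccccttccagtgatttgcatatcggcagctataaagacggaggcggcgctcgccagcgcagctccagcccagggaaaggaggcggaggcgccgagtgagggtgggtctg
Cdh20: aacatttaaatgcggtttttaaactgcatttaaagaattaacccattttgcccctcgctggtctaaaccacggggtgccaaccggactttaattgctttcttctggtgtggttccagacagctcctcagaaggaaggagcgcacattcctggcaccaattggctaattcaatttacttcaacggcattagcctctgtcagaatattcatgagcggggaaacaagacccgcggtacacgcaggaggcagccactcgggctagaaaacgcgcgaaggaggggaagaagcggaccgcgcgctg
Pcdh10: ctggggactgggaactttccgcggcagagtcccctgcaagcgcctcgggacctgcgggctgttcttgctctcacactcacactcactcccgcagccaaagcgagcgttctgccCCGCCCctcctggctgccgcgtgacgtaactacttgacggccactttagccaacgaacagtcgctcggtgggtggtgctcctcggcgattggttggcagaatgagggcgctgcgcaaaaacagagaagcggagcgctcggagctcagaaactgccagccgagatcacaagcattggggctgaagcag
Cdh22 and Pcdh10 had 1 GC box each, and Pcdh8 and Cdh20 had none. RefSeq promoters were matched for 22 of the 33 members, 25 promoters in all, and 9 of these (36.0%) held the GC box. Among all 32851 promoters of the same length 35.7% held it, so the members' share was close to that of other genes. Of the 7 promoters of members that fell, 2 held it, and of the 11 promoters of tested members without a call, 6 did. A match is only a match of letters and shows no binding.

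Among the type I classical cadherins, the group to which N-cadherin belongs, Cdh4 fell and Cdh3 rose. Cdh2, N-cadherin and the highest classical cadherin of the bulb, stood at 33.2 and 35.7 FPKM in DCKO and 37.3 and 35.7 FPKM in controls. Its log2 change was -0.08 (95% confidence interval -0.26 to 0.10), so its DCKO values lay at or just under those of the controls. Cdh4, R-cadherin, which is related in sequence to N-cadherin and can bind it, had 15.2 and 15.7 FPKM in DCKO, against 21.3 and 23.7 FPKM in controls. The groups did not overlap, and Cdh4 fell by 0.51 (SE 0.08, limma adjusted p = 0.0140), and without control replicate 2 it no longer passed (adjusted p = 0.0679). Cdh3, P-cadherin, had 2.08 and 2.40 FPKM in DCKO and 1.36 and 0.961 FPKM in controls, a rise of 0.59 (SE 0.15, limma adjusted p = 0.0478). That rise lost its call without control replicate 2 and without either DCKO library, with adjusted p between 0.0914 and 0.155, and with a pseudocount of 0.1 (0.0526). Cdh1, E-cadherin of epithelia, had 2.41 and 3.70 FPKM in DCKO and 4.18 and 1.49 FPKM in controls. The controls thus bracketed the DCKO values, and the higher one was replicate 1, the library with high epithelial markers. Cdh15, M-cadherin of muscle, did not reach the filter, at 0.277 to 0.490 FPKM, and the muscle factors Myod1 and Myog were below 0.1 FPKM in each library. Muscle markers were not absent, as the 6 listed ones summed to 4.671 and 4.604 FPKM in DCKO and 5.485 and 3.893 FPKM in controls. Of these, Acta1 and Des reached the filter, with 4-library means of 2.829 and 1.217 FPKM, and gave no call.

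The type II classical cadherins ranged from the largest decrease of any tested member to a rise. Of 10 tested genes 2 fell (20%), 1 rose (10%) and 7 did not pass, against 14.3% lower and 13.0% higher over all tested genes. Cdh22, known as pituitary and brain cadherin, had 5.03 and 2.37 FPKM in DCKO, against 18.6 and 24.3 FPKM in controls. It was the highest type II cadherin in the control bulbs, and it stood below 6 others in DCKO replicate 1 and below 7 others in DCKO replicate 2. Its mean was 5.79-fold lower in DCKO, a log2 change of -2.30 (SE 0.30, 95% confidence interval -3.08 to -1.53, limma adjusted p = 0.00946). Summed interneuron markers moved with it between genotypes. Within the DCKO pair the order differed, as replicate 2 had the lower Cdh22 and the higher marker sum. The part of interneuron number in the Cdh22 decrease was not tested.

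Cdh20 had 5.50 and 5.64 FPKM in DCKO and 11.4 and 12.1 FPKM in controls. The libraries of each genotype lay close together, and the mean was 2.12-fold lower (log2 change -0.96, SE 0.08, limma adjusted p = 0.00315). Cdh20 lies on chromosome 1 (104768529 to 104995481, + strand, GRCm38) in a stretch that also holds Cdh7, 4987.0 kb further on, and Cdh19, another 748.2 kb on. Cdh7, with a mean of 0.598 FPKM, was below the filter. It stood at 0.205 and 0.320 FPKM in DCKO and 0.807 and 1.06 FPKM in controls, 3.55-fold lower, and it passed when no filter was used (log2 change -0.61, limma adjusted p = 0.0396). Cdh19, a cadherin of neural crest-derived glia, went the other way, at 9.94 and 6.31 FPKM in DCKO and 3.78 and 4.38 FPKM in controls. The 3 neighbours therefore did not share a direction. Cdh19 rose by 0.82 (SE 0.21, limma adjusted p = 0.0453), and it no longer passed without DCKO replicate 1 (adjusted p = 0.0662), without control 1 (0.0885) or 2 (0.0560), and with no intensity trend (0.0551).

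Markers of olfactory ensheathing cells, the glia that wrap olfactory axons, were also higher in DCKO. The 5 genes summed to 2953 and 3598 FPKM in DCKO and 2124 and 2165 FPKM in controls, with 4 of 5 called higher, and none was listed at 0 in any library. Fabp7 made up most of the sum, with 2387 and 2919 FPKM in DCKO and 1752 and 1782 FPKM in controls. Within the DCKO pair the order of the sum differed, as replicate 1 had the higher Cdh19 and the lower sum. Single markers were split: Ngfr and S100b were higher in replicate 1, as Cdh19 was, and Npy, Frzb and Fabp7 were higher in replicate 2. The part of glial number in the Cdh19 rise was not tested.

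The other type II members gave no call. Cdh18 had 2.96 and 1.60 FPKM in DCKO and 4.29 and 4.32 FPKM in controls, groups that did not overlap (log2 change -0.73, SE 0.22, limma adjusted p = 0.0654). DCKO replicate 2 was the lower one, as for Cdh22, and without replicate 1 of the DCKO pair Cdh18 passed (adjusted p = 0.0225). Cdh8, Cdh11 and Cdh6 had log2 changes of 0.26, 0.28 and 0.19, and Cdh10, Cdh12 and Cdh24 of 0.07, 0.07 and -0.09. The intervals of these 6 genes all included 0 and reached at most 0.78 upwards and -0.39 downwards. Cdh11, known also as osteoblast cadherin, had 10.4 and 14.8 FPKM in DCKO and 10.9 and 9.26 FPKM in controls, and so was not set apart in the control library with high bone markers. Cdh9, which is known from hippocampal mossy fibre synapses, did not reach the filter, with 0.545 and 0.442 FPKM in DCKO and 0.915 and 0.859 FPKM in controls. Without the filter it missed the threshold (limma adjusted p = 0.0683).

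Cadherins outside the classical types included the largest rise of any tested member. Cdh13 encodes T-cadherin, which is held in the membrane by a lipid anchor, lacks the catenin-binding tail and serves as a receptor for adiponectin and as a guidance cue. It had 31.3 and 22.6 FPKM in DCKO, against 9.66 and 10.6 FPKM in controls. Every DCKO value was above both controls, with a 2.66-fold higher mean (log2 change 1.31, SE 0.16, 95% confidence interval 0.88 to 1.74, limma adjusted p = 0.00868). Cdh13 made up 12.1% and 8.68% of the members' summed FPKM in DCKO and 3.07% and 3.29% in controls. Mitral and tufted cell markers were higher in the same libraries, with the sums given above. Within the DCKO pair, Reln, Slc17a7 and Nts were higher in replicate 1, as Cdh13 was, and Tbx21, Tbr1 and Eomes were higher in replicate 2. The part of projection neuron share in the Cdh13 rise was not tested. Cdh13 spans 1041.2 kb of chromosome 8 (118283733 to 119324921, + strand, GRCm38).

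Cdh23 and Pcdh15, which together form the tip links of inner ear hair cells, moved in opposite directions in the bulb. Cdh23 had 4.74 and 3.69 FPKM in DCKO and 2.51 and 1.95 FPKM in controls, a rise of 0.69 (SE 0.16, limma adjusted p = 0.0344). Pcdh15 had 3.38 and 2.86 FPKM in DCKO and 4.90 and 5.56 FPKM in controls, a log2 change of -0.60 (SE 0.12, limma adjusted p = 0.0241). Neither pair of groups overlapped, but neither passed when control replicate 2 was left out (adjusted p = 0.104 for Cdh23 and 0.102 for Pcdh15). The Cdh23 call was also lost without DCKO replicate 1 (adjusted p = 0.102), and that of Pcdh15 without DCKO replicate 2 (0.0593). With no filter on low values, where more genes were tested, Cdh23 (adjusted p = 0.0750), Pcdh15 (0.0565), Cdh3 (0.0737) and Cdh19 (0.0955) missed the threshold. Cdh26 and Cdh17, cadherins known from epithelia, were below the filter. Cdh26 had 0.0750 and 0.0355 FPKM in DCKO and 1.81 and 0.0370 FPKM in controls, so it was raised in control replicate 1 alone, the library with high epithelial markers. Cdh17 was listed at 0 in control replicate 2 and did not exceed 0.113 FPKM in any library.

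**Figure D2:**
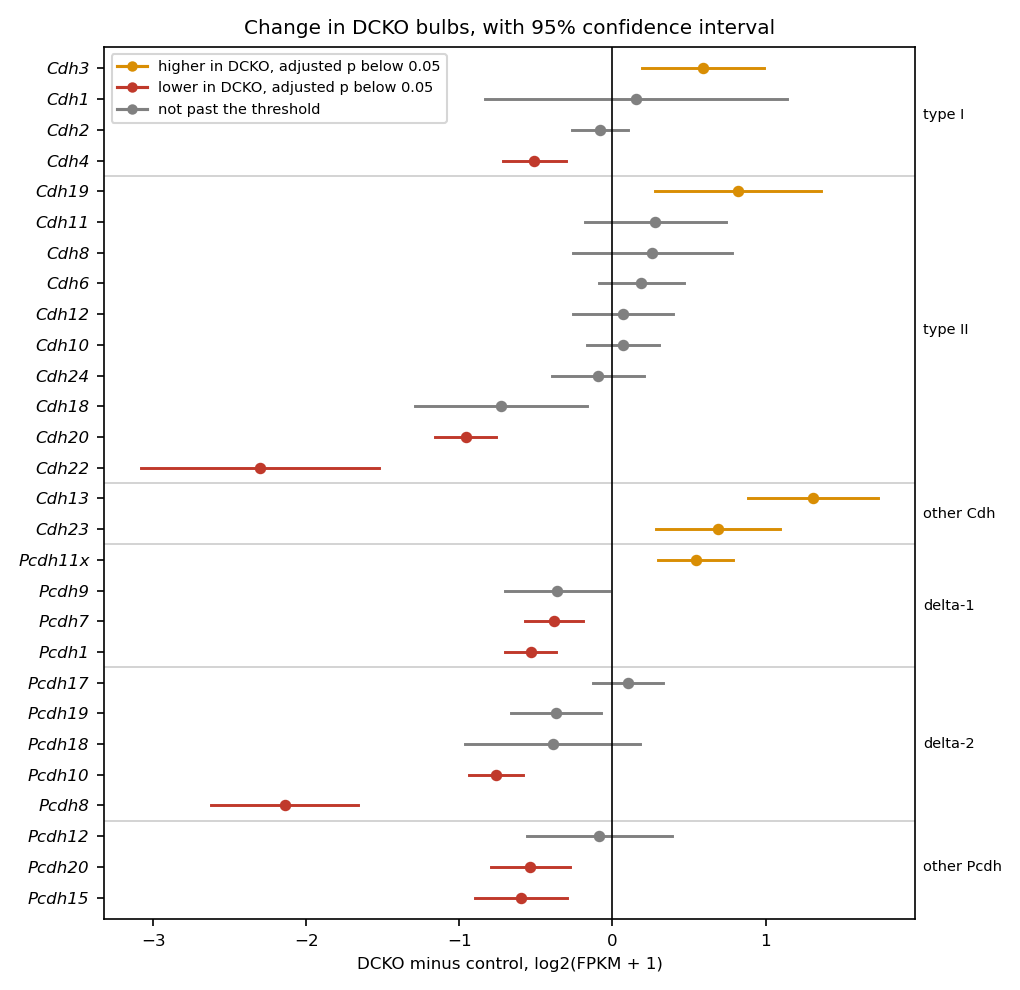
Log2 change of each tested member (horizontal axis, DCKO minus control on the log2(FPKM + 1) scale) with its 95% confidence interval from limma, grouped by subfamily. The 5 genes that rose are orange and the 9 that fell are red, and Cdh22 at -2.30 and Pcdh8 at -2.14 lie farthest from 0.

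Among the protocadherins, decreases prevailed: of 12 genes, each of which was tested, 6 fell (50%), 1 rose (8.33%) and 5 did not pass. Over all tested genes 14.3% fell and 13.0% rose. The median log2 change of the protocadherins was -0.39, against 0.11 for the 16 tested cadherins, and no test compared the 2 families. Neuroblast markers were lower in the same libraries, with sums of 51.5 and 81.6 FPKM in DCKO and 165 and 172 FPKM in controls. Of 4 such markers Dcx, Cd24a and Igfbpl1 fell and Sox11 gave no call, none was listed at 0, and their part in the protocadherin decreases was not tested. The delta-2 protocadherins, whose tails can recruit the WAVE actin regulators, held the largest protocadherin decreases. Pcdh8, also known as arcadlin, is an activity-regulated protocadherin known in hippocampal neurons to promote the uptake of N-cadherin from synapses through the kinase Taok2. It had 1.95 and 2.97 FPKM in DCKO and 15.7 and 12.6 FPKM in controls. The mean was 5.76-fold lower (log2 change -2.14, SE 0.18, 95% confidence interval -2.62 to -1.66, limma adjusted p = 0.00365), and Pcdh8 stood 4th of the 5 delta-2 genes by mean level in DCKO, against 2nd in controls. Cdh2 and Taok2 themselves gave no call, with Taok2 at 32.4 and 34.2 FPKM in DCKO and 36.7 and 36.5 FPKM in controls. Pcdh8 lies on chromosome 14 (79766775 to 79771312, - strand, GRCm38), and its exons overlap those of an antisense gene, Gm9748, whose reads cannot be told apart without the strand.

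Pcdh10 was the highest of all members in the control bulbs. It had 31.2 and 31.4 FPKM in DCKO and 51.7 and 55.7 FPKM in controls, a log2 change of -0.76 (SE 0.07, limma adjusted p = 0.00411). The gap between the groups was far wider than the spread within either, and Cdh2 and Pcdh10 were at similar levels in DCKO. A gene on the opposite strand overlaps exons of Pcdh10 as well (1700027H10Rik), and the same holds for Pcdh7, Pcdh19, Cdh8 and Cdh9. Pcdh19, an X-linked gene whose human counterpart is mutated in an epilepsy that affects mainly females, had 1.62 and 1.64 FPKM in DCKO and 2.42 and 2.38 FPKM in controls. Those groups did not overlap, but the change of -0.37 missed the threshold (SE 0.11, limma adjusted p = 0.0699) and passed on scaled counts (adjusted p = 0.0128) and without an intensity trend (0.0293). Pcdh18 had 2.89 and 4.98 FPKM in DCKO and 5.69 and 4.98 FPKM in controls, with DCKO replicate 2 level with control replicate 2. Pcdh17, which is known to regulate presynaptic assembly, stood at 6.55 and 7.29 FPKM in DCKO and 6.47 and 6.32 FPKM in controls (95% confidence interval of the log2 change -0.13 to 0.33).

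Of the 4 delta-1 protocadherins, which carry a conserved tail motif that binds protein phosphatase 1, Pcdh1 and Pcdh7 fell and Pcdh11x rose. Pcdh1 had 15.1 and 15.5 FPKM in DCKO and 22.5 and 22.7 FPKM in controls (log2 change -0.53, SE 0.06, limma adjusted p = 0.00795). Pcdh7 had 9.90 and 10.5 FPKM in DCKO and 13.8 and 13.4 FPKM in controls (log2 change -0.38, SE 0.07, limma adjusted p = 0.0230). Both decreases were under 1.5-fold in mean FPKM, and the Pcdh7 call was lost without either control (adjusted p = 0.127 and 0.106) or without DCKO replicate 1 (0.0558). Pcdh9 had 6.37 and 5.07 FPKM in DCKO and 7.09 and 8.15 FPKM in controls and did not pass (log2 change -0.36, limma adjusted p = 0.0995). Pcdh11x, the X-linked member, had 6.28 and 6.82 FPKM in DCKO and 3.99 and 4.38 FPKM in controls (log2 change 0.54, SE 0.09, limma adjusted p = 0.0182). It was the one protocadherin to rise, and its call was lost without either control (adjusted p = 0.0851 and 0.0542) or without DCKO replicate 2 (0.0510). The libraries differ in sex-linked genes. Xist stood at 77.0 and 0.0342 FPKM in DCKO and 0.0252 and 0.0355 FPKM in controls, and the Y-linked Ddx3y at 0 and 14.2 FPKM in DCKO and 12.1 and 12.9 FPKM in controls. DCKO replicate 2 was like the controls in both genes. Without DCKO replicate 1, which left 3 libraries alike in these genes, Pcdh11x rose by 0.59 (limma adjusted p = 0.0435).

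Of the remaining protocadherins, Pcdh20 had 6.24 and 5.28 FPKM in DCKO and 8.90 and 8.68 FPKM in controls, a log2 change of -0.54 (SE 0.10, limma adjusted p = 0.0217). The groups did not overlap, and Pcdh20 no longer passed when control 1 (adjusted p = 0.0806) or control 2 (0.0742) was left out. Pcdh12, an endothelial protocadherin, had 0.737 and 1.20 FPKM in DCKO and 1.18 and 0.971 FPKM in controls, groups that overlapped. Summed endothelial markers were 148.3 and 147.5 FPKM in DCKO and 117 and 114 FPKM in controls, with 2 of 5 called higher. Cdh5, the endothelial cadherin left out of the members, had 9.16 and 12.9 FPKM in DCKO and 7.42 and 6.83 FPKM in controls and did not pass (limma adjusted p = 0.0653).

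The members' FPKM together summed to 260.2 and 259.8 in DCKO and 314.6 and 322.9 in controls. Delta-2 protocadherins took 44.2 and 48.3 of this in DCKO and 82.1 and 82.0 in controls. Type I cadherins summed to 53.5 and 58.0 FPKM in DCKO and 64.5 and 62.2 FPKM in controls. Most of that difference came from Cdh4, with means of 15.5 FPKM in DCKO and 22.5 FPKM in controls. Type II cadherins summed to 78.3 and 79.99 FPKM in DCKO and 91.7 and 102 FPKM in controls. The size of that difference was close to that of Cdh22 alone, with means of 3.70 FPKM in DCKO and 21.4 FPKM in controls. The median log2 change of the tested type II genes was 0.07. Cadherins outside the classical types went against the total, at 36.3 and 26.3 FPKM in DCKO and 14.0 and 12.6 FPKM in controls, most of it Cdh13. Most of the delta-2 difference came from Pcdh10, with means of 31.3 FPKM in DCKO and 53.7 FPKM in controls, and Pcdh8, with means of 2.46 FPKM in DCKO and 14.2 FPKM in controls.

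**Figure D3:**
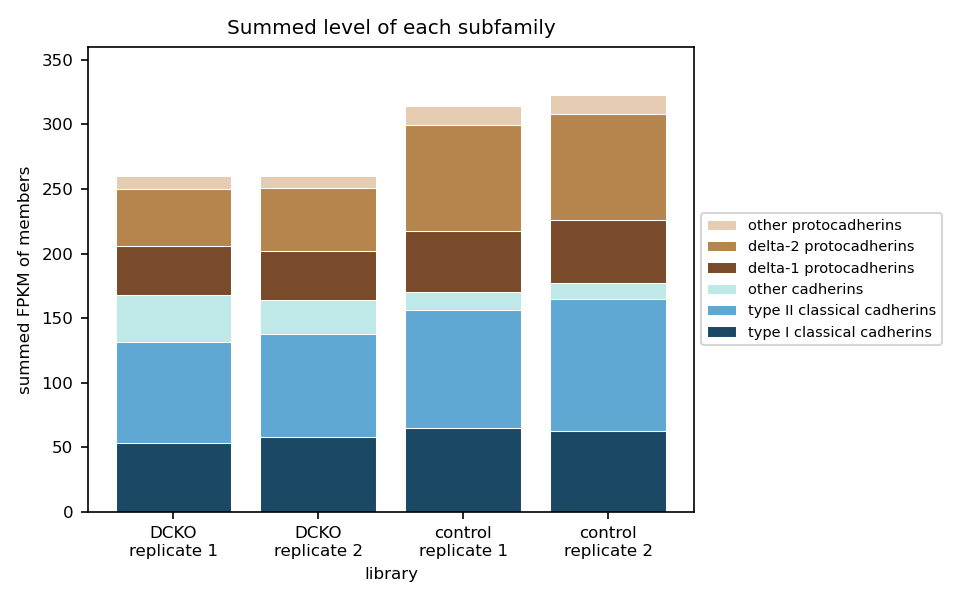
Summed FPKM of the members in each library (vertical axis, starting at 0), stacked by subfamily, with the DCKO libraries on the left. The DCKO bars reach 260.2 and 259.8 and the control bars 314.6 and 322.9, and the delta-2 segment is the one that shrinks most in FPKM.

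Genes whose proteins work with cadherins were read from a list of catenins, nectins, proteases, WAVE complex members and junction scaffolds. Of 29 tested genes 8 rose (27.6%), 3 fell (10.3%) and 18 did not pass, and the median log2 change was 0.07. Over all tested genes 13.0% rose and 14.3% fell. Beta-catenin, Ctnnb1, stood at 232 and 253 FPKM in DCKO and 238 and 241 FPKM in controls (95% confidence interval of the log2 change -0.18 to 0.21). The neuronal alpha-catenin Ctnna2 had 26.4 and 29.7 FPKM in DCKO and 25.2 and 26.4 FPKM in controls (log2 change 0.11, limma adjusted p = 0.341). The epithelial-type alpha-catenin Ctnna1 rose, with 31.3 and 32.7 FPKM in DCKO and 21.8 and 18.9 FPKM in controls (log2 change 0.63, SE 0.09, limma adjusted p = 0.0118). So did vinculin, Vcl, which strengthens the link of alpha-catenin to actin, with 19.2 and 16.7 FPKM in DCKO and 11.5 and 9.92 FPKM in controls (log2 change 0.70, limma adjusted p = 0.0137). The nectin Pvrl4 had 3.12 and 2.47 FPKM in DCKO and 1.01 and 0.693 FPKM in controls (log2 change 1.03, limma adjusted p = 0.0148). With any 1 library left out, between 3 and 5 of the genes rose.

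Astrocyte markers were higher in the libraries where these genes rose, with 5 of 6 called and sums of 985 and 927 FPKM in DCKO and 519 and 514 FPKM in controls. The part of glial RNA in the rises was not tested. The scaffold Magi1 had 15.0 and 13.8 FPKM in DCKO and 27.9 and 31.9 FPKM in controls, the largest decrease of the list (log2 change -1.003, SE 0.09, limma adjusted p = 0.00422). Pkp4, an armadillo protein of the p120 family, had 11.6 and 12.4 FPKM in DCKO and 24.0 and 24.6 FPKM in controls (log2 change -0.96, SE 0.07, limma adjusted p = 0.00256). Lin7a, a PDZ scaffold, fell by 0.47. Of the 6 listed genes of the WAVE complex, which delta-2 tails recruit, Abi1 rose, with 24.2 and 24.0 FPKM in DCKO and 20.3 and 19.8 FPKM in controls (log2 change 0.25, limma adjusted p = 0.0435). Nckap1, Wasf1, Cyfip1, Cyfip2 and Abi2 gave no call, with log2 changes between -0.20 and 0.22.

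Among other cadherin superfamily genes, 3 of 13 tested rose (23.1%) and 2 fell (15.4%), against 13.0% and 14.3% of all tested genes. Cdhr1, a cadherin-related gene known to be abundant in mitral and tufted cells, had 477 and 422 FPKM in DCKO and 243 and 271 FPKM in controls (log2 change 0.80, SE 0.10, limma adjusted p = 0.00863). Its level was above the sum of the 33 members in DCKO bulbs. Fat4, a giant planar polarity cadherin, rose by 0.75, and the calsyntenin Clstn1 rose by 0.32. The Flamingo-type cadherins Celsr3 and Celsr2, known for roles in axon guidance and planar polarity, fell by 0.75 and 0.63, with Celsr3 at 9.58 and 10.4 FPKM in DCKO and 17.3 and 17.5 FPKM in controls. Adjusted p ranged from 0.00508 to 0.0416 for these 5 genes by limma.

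**Figure D4:**
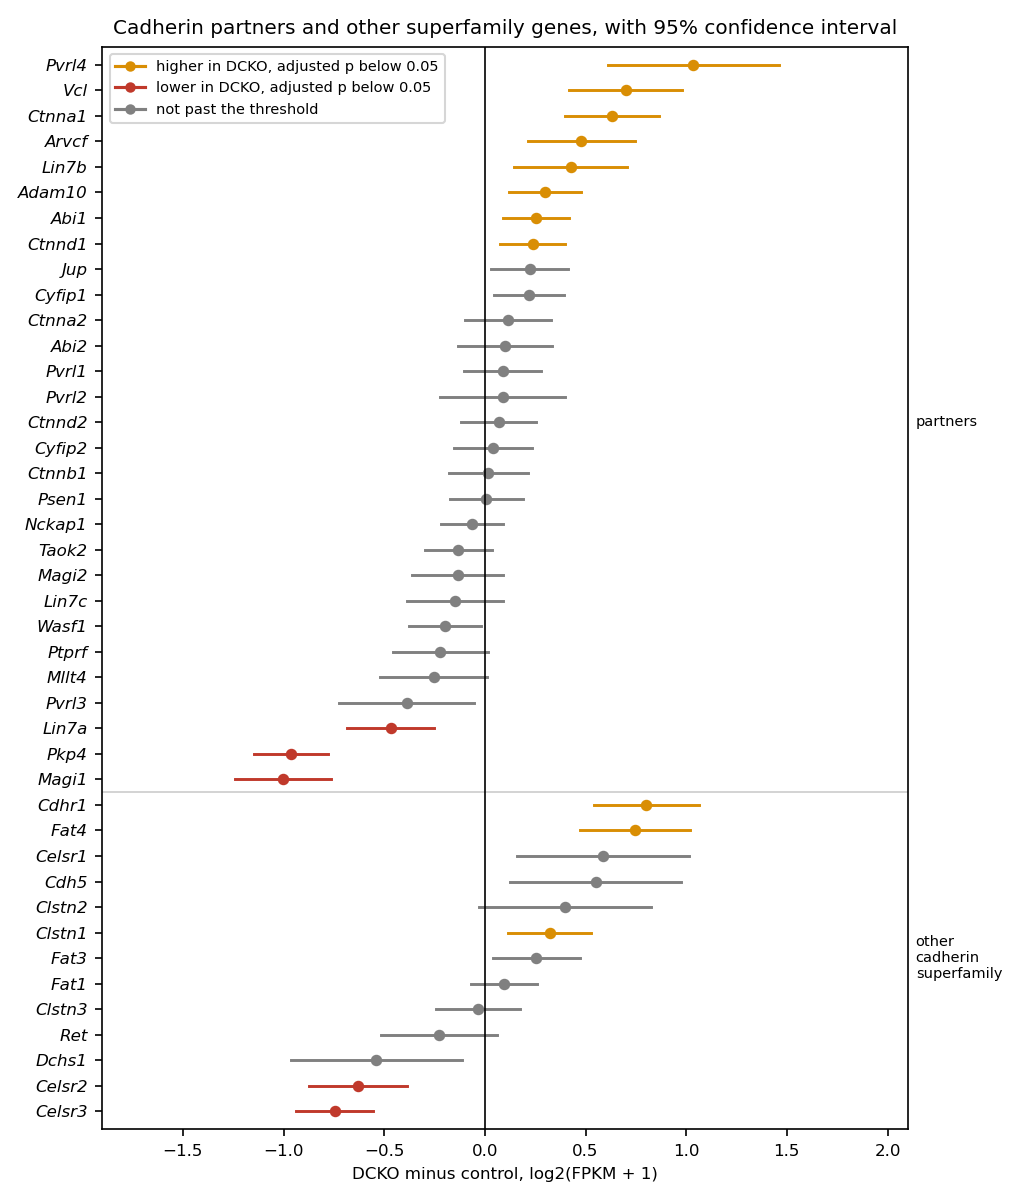
Log2 change (horizontal axis, DCKO minus control on the log2(FPKM + 1) scale) with 95% confidence interval from limma for the tested partner genes (top) and other cadherin superfamily genes (bottom). Pvrl4 at 1.03 and Cdhr1 at 0.80 head the 2 lists, and Magi1 at -1.003 and Celsr3 at -0.75 close them, while Ctnnb1 sits near 0.

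Members that are neighbours on a chromosome are given here with their calls, and whether neighbours moved together was not tested. A missing call does not set a gene apart from its neighbour. Cdh3 and Cdh1 lie 46.1 kb apart on chromosome 8, and Cdh3 rose while Cdh1 had groups that overlapped. The confidence interval of the Cdh1 log2 change, -0.83 to 1.14, contained the Cdh3 rise of 0.59. Without control replicate 1, the library with high epithelial markers, Cdh1 changed by 0.68 and Cdh3 by 0.72. Without control replicate 2 the changes were -0.37 for Cdh1 and 0.46 for Cdh3. Cdh6, Cdh9, Cdh10, Cdh12 and Cdh18 follow each other on chromosome 15, and none of the 4 tested genes among them passed. Pcdh8, Pcdh17, Pcdh20 and Pcdh9 lie in that order on chromosome 14, where Pcdh8 and Pcdh20 fell and the other pair gave no call. Of the 3 longest members, Cdh13 (1041.2 kb) rose, Pcdh15 (1550.4 kb) fell and Cdh12 (1140.3 kb) gave no call.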

How the data were processed

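Olfactory bulb RNA of 2 DCKO and 2 control samples was sequenced on an Illumina instrument, per the labels' design text. The submitters' processing notes name TopHat, Cufflinks 2.1.1 and GRCm38.p4, and the sources used here give no annotation, settings or strand. The FPKM values were made by the authors, per the file headers. The deposited columns headed count are treated as a signal that the authors scaled by 1 factor per library. They are not raw counts, so the planned count models were not run.

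Columns were mapped by the codes in the sample descriptions, and 0 were left unmapped. log2(FPKM + 1) was fitted with limma 3.58.1 (R 4.3.3, intensity trend, two-sided, Benjamini-Hochberg adjustment, threshold 0.05) over the 13434 genes whose 4-library mean reached 1 FPKM. Prior degrees of freedom were 2.91. The model was also run on independent values simulated from its own fitted variances. That run checks the code and cannot show how differences in sex or tissue between libraries bear on the calls. Fold changes on this scale understate the change of low genes. Members, lists, tests and alternatives were chosen with earlier results of these data known. The text accounts for every member, and from the partner and superfamily lists names the 3 largest called changes in each direction, Ctnnb1, Ctnna2 and Cdhr1. Taok2, the WAVE complex genes and single marker genes were named after their values were seen. Markers of other cell types were listed with the design, and some of them are not reported here. Loci are from GENCODE M21 (GRCm38) and promoters from RefSeq (GRCm38.p6). Alternatives covered the pseudocount, the filter, 3 further scalings, the fit with no variance trend, a replicate block, scaled counts relative to their sum and each library left out.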

Additional observations from a re-analysis of the deposited data

How the results depend on the processing

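Of the 14 called members, 6 kept their call under each of the 14 alternatives run (Cdh13, Cdh20, Cdh22, Pcdh1, Pcdh8 and Pcdh10), and 8 lost it under at least 1. The 5 members that rose became 3 with a filter of 5 FPKM on the mean (18 members tested), 2 with no filter and 3 with the replicate block. Leaving out 1 library gave 1 to 3 that rose and 5 to 9 that fell, against 9 with all libraries, with both lowest counts without control replicate 2. Over all tested genes, 1747 rose and 1926 fell, against 806 to 1384 and 1030 to 1875 with 1 library left out. Of the partner genes 8 rose, against 3 with no filter, 4 without an intensity trend, 4 with the replicate block and 3 to 5 with 1 library left out. The 3 other superfamily genes that rose became 5 with quantile normalization, 6 on scaled counts and 2 to 4 with 1 library left out. The partner genes that fell numbered 2 to 4, and the superfamily genes that fell 2 to 3, with 1 library left out. The cause of these shifts was not tested. A higher filter leaves fewer genes to test, and a left-out library leaves fewer samples.

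Uncalled members turned sign without 1 library: Cdh1 ranged from -0.37 (without control replicate 2) to 0.68 and was -0.074 without DCKO replicate 2, Cdh10 from -0.030 (without control replicate 1) to 0.16, Cdh12 from -0.00076 to 0.14, Cdh24 from -0.24 to 0.058 and Pcdh12 from -0.26 to 0.084. The last 3 turned without DCKO replicate 1. None of the 3 further scalings of FPKM changed a member's sign or call, and each moved the median of all genes by under 0.1. Scaled counts relative to their sum added a call for Pcdh19. Sample titles do not say whether replicates of the same number were paired. Differences within the DCKO pair and within the control pair correlated at -0.02 across genes. That value cannot settle the pairing, as the DCKO libraries differ in sex-linked genes and the controls in epithelial markers. The block ended the calls of Cdh3 and Cdh19 and no other member's. The edgeR and DESeq2 alternatives were not run. Members under about 100 scaled counts in a library have the least depth behind them. Among tested members, Pcdh8 (90.9) and Pcdh12 (82.1) were under it in DCKO replicate 1. Cdh22 (84.4) and Cdh18 (89.9) were under it in DCKO replicate 2, and Cdh3 in both controls (99.8 and 71.4). The members below the filter, such as Cdh7, were under it too.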
